A study of Mus musculus with 15 samples.

Results

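The proteins that coat caveolae were followed at the mRNA level through 7 genes: the caveolins *Cav1* and *Cav2*, the cavins *Cavin1*, *Cavin2* and *Cavin3*, and *Ehd2* and *Pacsin2*, whose products act at the caveolar neck and on membrane bending. They were chosen by gene name, but with earlier results of these data known. All 7 were listed among the 26509 genes of the 2 count tables together. All 7 also passed the filter on low counts (5 counts or more in 3 libraries or more) in every comparison. The mRPE count table held 9 libraries of cultured mouse retinal pigment epithelium (RPE) cells and 20910 genes. The RPE/choroid table held 6 libraries and 25038 genes.

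Caveolae are flask-shaped pits of the plasma membrane that buffer membrane tension and take part in uptake and signalling. Caveolin-1 inserts into the membrane as an oligomer, caveolin-2 needs it to reach the surface, and cavins, led by cavin-1, assemble as an outer coat around it. In the outer retina caveolae are known on RPE and choroidal endothelial membranes. CAV3 and CAVIN4 are the muscle counterparts of the family.

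The mRPE cells came from C57/BL6J mice and were immortalised with HPV E6/E7, which all 3 cultured groups share. The knockout cells stably expressed Cas9 from a lentivirus under puromycin selection and received a guide to exon 5 of *Prom1*. Whether the WT libraries are of Cas9 cells with a scrambled guide is not given in the sources used here. The groups were WT (4 libraries) and 2 *Prom1*-KO lines, KO22 (3 libraries) and KO26 (2 libraries). The study left both KO26 libraries out of its RNA-seq comparison as outliers of a principal component analysis. Its qPCR and Western blots used lines named KO22 and KO26.4. Within a line the deletion and anything else particular to that line cannot be told apart. The library names carry prefixes for 2 sequencing batches, with 1 library of each group in the batch named 8995 and the other 6 in the batch named 9262. The RPE/choroid libraries were 3 of WT mice and 3 of *Prom1*-KO mice, bred from *Prom1* fl/fl and RPE65-Cre parents and given tamoxifen by gavage. RPE65-Cre acts in RPE cells, which are a part of each sample beside the choroid, and the age, the Cre status and the tamoxifen status of the WT mice are not given in the sources used here. The study speaks of biological replicates, but the sources used here do not say whether mRPE libraries of one group came from separate cultures, so p-values for mRPE measure the spread between libraries, which may be technical.

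Total counts were 8076188 to 27537863 in mRPE libraries and 48154444 to 61766179 in RPE/choroid. In mRPE, mitochondrial rRNA genes took 15.3% to 19.0% of counts in WT, 11.1% to 13.3% in KO22 and 11.3% and 14.4% in KO26. The part of this difference in the members' values was not tested, and with all mitochondrially encoded genes left out no member's call changed in KO22 against WT. In RPE/choroid, mitochondrial rRNA genes took 55.3% to 63.2% of counts in 5 libraries and 80.4% in replicate 3 of the *Prom1*-KO group, which therefore stood apart. *Prom1* itself had no row among the mRPE genes analysed here, so its level was not checked there. In RPE/choroid its counts were 3472, 2930 and 3659 in WT and 2570, 2947 and 1071 in *Prom1*-KO, or 48.7, 49.6 and 53.3 CPM against 49.9, 48.1 and 35.5. The value of 35.5 is that of the replicate that stood apart, and the other 2 were within 1 CPM of the WT range, so the labels are followed here without a check from *Prom1* mRNA. Of 10 RPE marker genes, 4 were measured in mRPE and summed to only 11.8 to 17.4 CPM in WT, 17.3 to 39.95 in KO22 and 8.17 and 12.6 in KO26, while *Rpe65*, *Rlbp1*, *Ttr*, *Lrat*, *Rgr* and *Tyrp1* had no row among the genes analysed here. Of the 4, the RPE transcription factor gene *Mitf* was higher in KO22 (log2 fold change 1.41, adjusted p = 0.00550, edgeR). *Rdh5* went the other way (-1.13, adjusted p = 0.00393, edgeR), and *Best1* (0.80) and *Pmel* (-0.40) had an adjusted p above 0.05. In RPE/choroid the 10 markers summed to 2031 to 2916 CPM in WT and 565 to 763 in *Prom1*-KO.

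*Cav1* and *Cav2* lie side by side in the same orientation on chromosome 6, with 16262 bases between them in GRCm39 (*Cav2* at chr6:17281026-17289877, *Cav1* at chr6:17306140-17341451, both on the plus strand). *Cavin1* lies at chr11:100847559-100861713 (minus), *Cavin2* at chr1:51328266-51345710 (plus), *Cavin3* at chr7:105128391-105131507 (minus), *Ehd2* at chr7:15680874-15701629 (minus) and *Pacsin2* at chr15:83258424-83348819 (minus). In GENCODE, 6 of the 7 share bases with another annotated gene, mostly a noncoding RNA on the opposite strand, and *Ehd2* with none. *Pacsin2* also holds a processed pseudogene on its own strand, *Gm5417*, so its reads could in part be shared with it. The 250 bases before the outermost annotated start of the neighbours *Cav1* and *Cav2*, both higher in KO22, and of *Cavin3*, lower in KO22, are shown from GRCm39, 5′ to 3′, with motif matches in capitals. They lie at chr6:17305890-17306139 (plus) for *Cav1*, chr6:17280776-17281025 (plus) for *Cav2* and chr7:105131508-105131757 (minus) for *Cavin3*. The main *Cav2* transcript starts 158 bases inside the outermost start, and those bases were not searched.
*Cav1* promoter: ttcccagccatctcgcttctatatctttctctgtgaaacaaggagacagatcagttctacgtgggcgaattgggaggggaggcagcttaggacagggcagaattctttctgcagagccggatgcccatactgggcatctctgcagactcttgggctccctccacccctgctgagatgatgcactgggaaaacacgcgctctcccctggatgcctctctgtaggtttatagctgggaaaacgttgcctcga
*Cav2* promoter: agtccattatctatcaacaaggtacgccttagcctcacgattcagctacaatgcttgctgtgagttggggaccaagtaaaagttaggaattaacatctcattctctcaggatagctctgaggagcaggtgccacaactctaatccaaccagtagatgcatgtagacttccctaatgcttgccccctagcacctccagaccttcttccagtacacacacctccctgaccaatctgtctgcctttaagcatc
*Cavin3* promoter: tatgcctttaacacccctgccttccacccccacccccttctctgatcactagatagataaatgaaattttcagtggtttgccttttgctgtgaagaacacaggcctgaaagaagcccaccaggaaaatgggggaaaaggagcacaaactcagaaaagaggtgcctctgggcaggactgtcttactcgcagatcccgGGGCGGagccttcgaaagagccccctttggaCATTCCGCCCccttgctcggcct
These windows were searched on both strands for a TEAD motif (GGAATG), an AP-1 motif (TGANTCA), a GC box (GGGCGG), a FOX motif (GTAAACA) and the CArG box. Of 21757 protein-coding promoter windows of the same length, 12.4%, 6.46%, 29.9%, 2.97% and 1.41% held each of them in turn. The *Cavin3* window held 2 GC boxes and 1 TEAD match, which overlaps the second GC box. The *Ehd2* and *Pacsin2* windows held 1 GC box each, and those of *Cav1*, *Cav2*, *Cavin1* and *Cavin2* held none of these letters. The *Cav1* and *Cav2* windows had 54.0% and 47.2% G and C, against a median of 51.2% over all windows.

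Whether loss of *Prom1* in mRPE cells went with another level of caveolar coat mRNA was asked first in KO22, the line kept in the study's RNA-seq comparison. Of the 7 genes, *Cav1*, *Cav2* and *Pacsin2* were higher and *Cavin3* was lower at both limits used throughout (adjusted p under 0.05 by edgeR's quasi-likelihood test with Benjamini-Hochberg adjustment over all genes, and an absolute log2 fold change over 1.2). Such calls were frequent in this line: 25.2% of 20455 genes were called, 11.4% higher and 13.8% lower. The median log2 fold change was -0.31 over the 7 genes and -0.03 over all genes tested. At the adjusted p alone 6 of the 7 differed, 3 higher and 3 lower, where 53% of all genes did (26.9% higher, 26.1% lower).

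*Cav1*, which encodes the main structural protein of caveolae, was at 477, 338, 351 and 307 CPM (counts scaled to library size, as set by TMM) in the 4 WT libraries. In KO22 it was at 2171, 1701 and 1504 CPM, so every KO22 library stood above every WT library. The log2 fold change was 2.24 with a standard error (SE) of 0.12, a 4.74-fold higher level (adjusted p = 1.12e-06, edgeR). Within the batches it was 2.19 (8995) and 2.27 (9262). *Cav1* was picked out by the study from these same libraries, so its direction here is not independent evidence.

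*Cav2*, the partner that depends on caveolin-1 for transport, was at 19.9, 23.3, 19.1 and 16.2 CPM in WT. It was at 122, 126 and 119 CPM in KO22, again with no overlap. The log2 fold change was 2.63 (SE 0.13; adjusted p = 9.50e-07, edgeR), with 2.61 and 2.65 within the batches. The ratio of *Cav2* to *Cav1* counts within a library was 0.0418 to 0.0690 in WT and 0.0561 to 0.0791 in KO22. That difference, 0.36 on the log2 scale, did not pass an exact permutation test (p = 0.143, two-sided, 3 against 4 libraries).

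Among the cavins only *Cavin3* was called. *Cavin1*, needed for caveola formation, was at 182, 107, 111 and 105 CPM in WT and at 113, 95.3 and 98.1 in KO22. The groups overlapped, and the log2 fold change of -0.31 (SE 0.12, 95% interval -0.55 to -0.07) had an adjusted p of 0.0570 by edgeR. That p was below 0.05 under 3 of 17 alternatives, the lowest being 0.0169 with edgeR's own expression filter. *Cavin2*, a cavin that shapes the coat and is prominent in endothelium, was at 167, 179, 169 and 175 CPM in WT and at 147, 128 and 132 in KO22. Its libraries did not overlap, and it was lower at the adjusted p alone (log2 fold change -0.35, SE 0.10, adjusted p = 0.0168, edgeR). Under 3 of 17 alternatives that adjusted p was above 0.05, up to 0.0716 in a fit over all 9 mRPE libraries, and it was 0.0707 without KO22 replicate 2 and 0.05005 without KO22 replicate 3. *Cavin3*, a cavin linked to signalling at caveolae, was at 30.9, 24.1, 23.0 and 23.3 CPM in WT. In KO22 it was at 7.52, 11.3 and 9.47 CPM, below every WT library. Its log2 fold change was -1.42 (SE 0.19; adjusted p = 0.000195, edgeR), but within the batches -2.04 (8995, 1 library a group) and -1.18 (9262). It fell inside the fold limit without WT replicate 1 (-1.18), without KO22 replicate 1 (-1.15) and in batch 9262 alone (-1.16), with an adjusted p below 0.05 each time.

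*Ehd2*, an ATPase that holds caveolae at the surface, was at 166, 114, 131 and 109 CPM in WT and at 90.0, 102 and 102 in KO22. The lowest WT library lay above the highest KO22 library, and the log2 fold change was -0.41 (SE 0.15, adjusted p = 0.0390, edgeR), inside the fold limit. The adjusted p was above 0.05 under 5 of 17 alternatives, among them without KO22 replicate 1 (-0.20, adjusted p = 0.0791) and without WT replicate 3 (-0.39, adjusted p = 0.0981). *Pacsin2*, an F-BAR protein that bends membrane at caveolae, was at 82.8, 54.2, 59.7 and 50.7 CPM in WT and at 141, 145 and 141 in KO22. Its libraries did not overlap, and its log2 fold change of 1.204 (SE 0.13; adjusted p = 7.72e-05, edgeR) lay at the fold limit itself. It was past the adjusted p limit under all 17 alternatives and inside the fold limit under 7 of them, DESeq2 included (1.198). Libraries without overlap were found for 6 of the 7 genes, and for 50.1% of all genes.

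**Figure D1:**
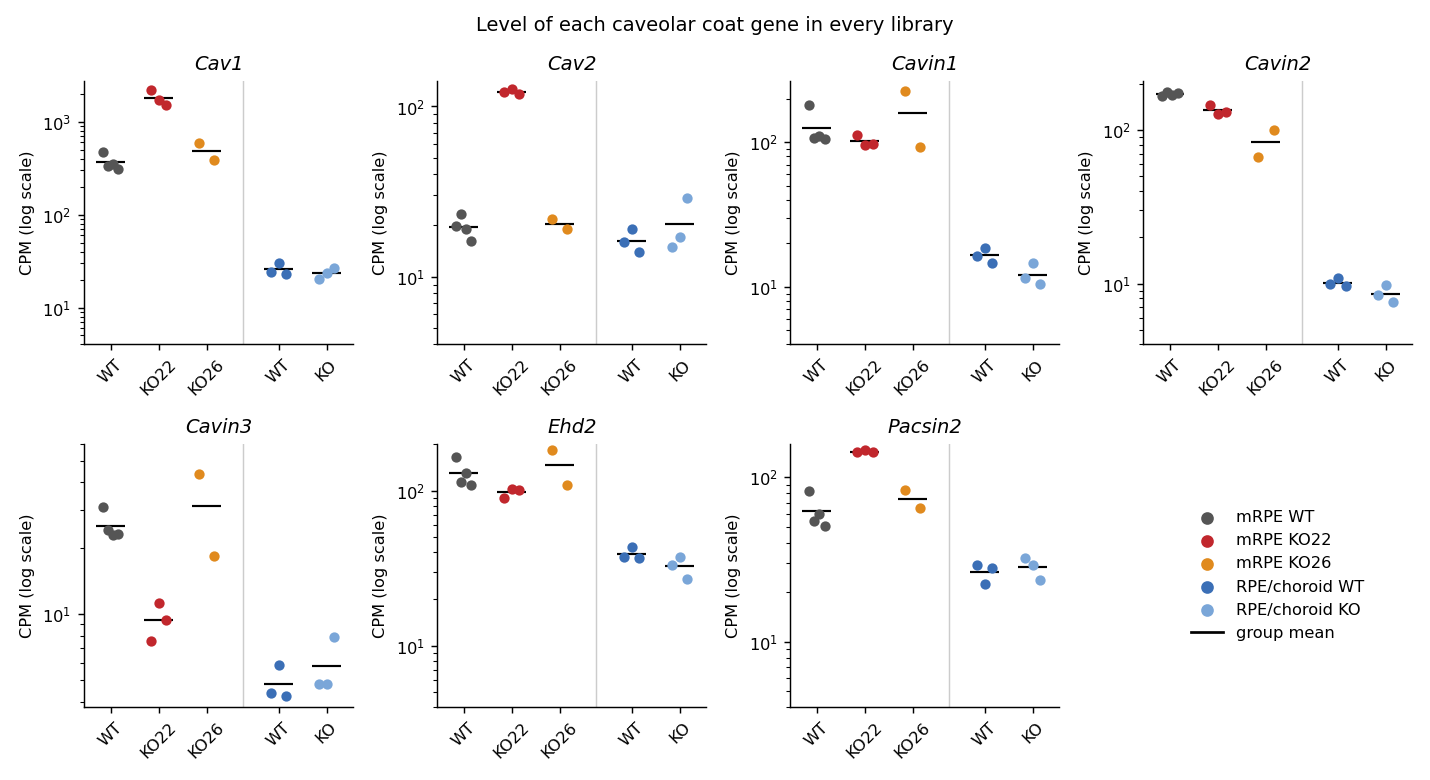
CPM on a log axis for each gene, with 1 point per library and a bar for the group mean, for mRPE (WT, n = 4; KO22, n = 3; KO26, n = 2) and RPE/choroid (WT and *Prom1*-KO, n = 3 each). KO22 points of *Cav1*, *Cav2* and *Pacsin2* lie above all other mRPE points and those of *Cavin3* below them, while the RPE/choroid groups overlap for every gene but *Cavin1*.

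In line KO26, targeted at the same gene and compared with the same WT libraries, no member was called in either direction, where 1.92% of 20737 genes were. DESeq2 called none either, and by edgeR 1 member, *Cavin2*, had an unadjusted p under 0.05. The members' median log2 fold change was 0.09, against 0.03 over all genes tested. *Cav1* was at 593 and 384 CPM in KO26 (log2 fold change 0.26, 95% interval -0.01 to 0.53), with 1 library above all of WT. *Cav2* was at 21.9 and 19.0 CPM (0.04, -0.28 to 0.36), inside the WT range. *Pacsin2* was at 83.2 and 64.4 CPM (0.18, -0.13 to 0.49), with 1 library above all of WT.

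Among the cavins, *Cavin2* was the member that stood out in KO26, at 66.9 and 99.9 CPM, below all 4 WT libraries, as for 12.8% of all genes. Its log2 fold change was -1.03 (SE 0.17; adjusted p = 0.0125, edgeR, where 1.13% of genes were lower at that limit), short of the fold limit. It was -1.41 without KO26 replicate 2 and -0.77 without KO26 replicate 1. The adjusted p was 0.0761 in the latter case and 0.0516 without WT replicate 2. With 1 KO26 library left, here and in batch 9262 alone, that library is assumed to vary like the other groups. *Cavin1* (227 and 92.3 CPM), *Cavin3* (43.7 and 18.5 CPM) and *Ehd2* (183 and 109 CPM) each had a high library in batch 8995 and a low one in batch 9262. WT replicate 1, the only WT library of batch 8995, was also the highest WT library for these 3 genes. Within the batches the KO26 difference had opposite signs for *Cavin1* (0.32 and -0.22), *Cavin3* (0.50 and -0.34) and *Ehd2* (0.14 and -0.11), so no direction is given for them.

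The lines were also compared directly, over the 9 mRPE libraries. *Cav1* and *Cav2* were higher in KO22 than in KO26 by 1.98 (SE 0.15; adjusted p = 1.01e-05) and 2.59 (SE 0.18; adjusted p = 5.07e-06) on the log2 scale, by edgeR. *Cavin3* was lower in KO22, with a log2 difference of -1.57 (SE 0.31; adjusted p = 0.00292, edgeR), and this call was lost without replicate 1 of KO22 (-1.13) or of KO26 (-0.98) and in batch 9262 alone (-0.84), the last 2 with a single KO26 library. That made 2 members higher and 1 lower, where 7.56% and 10.7% of all genes were called so, and 5 members passed the adjusted p, where 34.4% did. *Pacsin2* (1.03, adjusted p = 0.00120, and 1.23 without KO22 replicate 1) and *Cavin2* (0.70, adjusted p = 0.00941) passed edgeR's adjusted p alone. Without KO26 replicate 1, which leaves 1 KO26 library, *Cavin2* did not pass (0.42, adjusted p = 0.0846). *Cavin1* (-0.40, adjusted p = 0.159, edgeR) and *Ehd2* (-0.47, adjusted p = 0.0970, edgeR) did not pass.

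**Figure D2:**
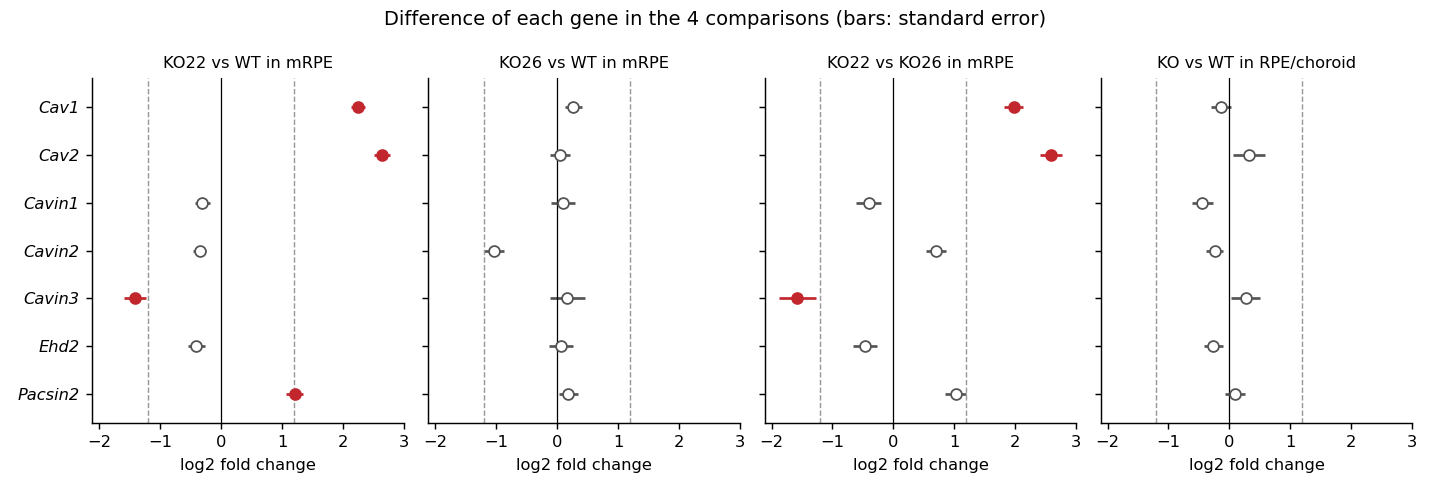
Log2 fold change of each gene in the 4 comparisons, with bars for ± 1 standard error, dashed lines at the fold limit of 1.2 and filled points for called genes. Calls occur in both panels with KO22 and in neither of the panels of KO26 against WT and RPE/choroid, and *Pacsin2* lies on the limit in KO22.

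The levels were then set against each other per length, as CPM per kb of annotated exon. In WT mRPE the order was *Cav1* (73.8 ± 15.0, SD, n = 4), *Cavin2* (25.0 ± 0.81), *Cavin1* (23.7 ± 6.97), *Ehd2* (20.5 ± 4.08), *Cavin3* (8.25 ± 1.22), *Pacsin2* (6.52 ± 1.52) and *Cav2* (4.58 ± 0.68). *Cavin2*, *Cavin1* and *Ehd2* overlapped in that order, as did *Cavin3* with *Pacsin2* and *Pacsin2* with *Cav2*. In KO22 *Cav1* reached 359 ± 68.7 CPM per kb (n = 3) and *Cav2*, last in WT, came second at 28.5 ± 0.86, while *Cavin3* came last at 3.07 ± 0.61.

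Caveolins made up 46.5% to 49.2% of the summed CPM per kb of the 7 genes in WT. They made up 82.1% to 86.2% in KO22, and 54.3% and 56.8% in KO26. The cavins summed to 52.6 to 68.4 CPM per kb in WT and to 40.1 to 45.1 in KO22. *Cavin1* counts per *Cav1* count were 0.316 to 0.381 in WT and 0.0521 to 0.0652 in KO22, a log2 difference of -2.55. The exact permutation test gave p = 0.0286, the smallest that 35 arrangements allow, and 0.0571 after adjustment over 6 ratios. *Cavin3* to *Cavin1* (-1.17) and *Pacsin2* to *Cavin1* (1.50) gave the same exact p and adjusted p. *Cavin2* to *Cavin1* (-0.08, exact p = 0.886) and *Ehd2* to *Cavin1* (-0.12, exact p = 0.457) overlapped between the groups. This test moves libraries across batches. Within batches 8995 and 9262 the differences were -2.87 and -2.43 for *Cavin1* to *Cav1*, -1.35 and -1.03 for *Cavin3* to *Cavin1*, and 1.46 and 1.54 for *Pacsin2* to *Cavin1*. An exact permutation within batches, added after the data were seen, gave these 3 ratios p = 0.05, the smallest that 20 arrangements allow, and 0.1 after adjustment over the 6. For *Cavin2* to *Cavin1* the batches had opposite signs (0.50 and -0.27), so no direction is given. They had the same sign for *Ehd2* to *Cavin1* (-0.20 and -0.051) and for *Cav2* to *Cav1* (0.43 and 0.39). These ratios do not depend on the normalisation between libraries, and 5 of the 6 share *Cavin1*.

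**Figure D3:**
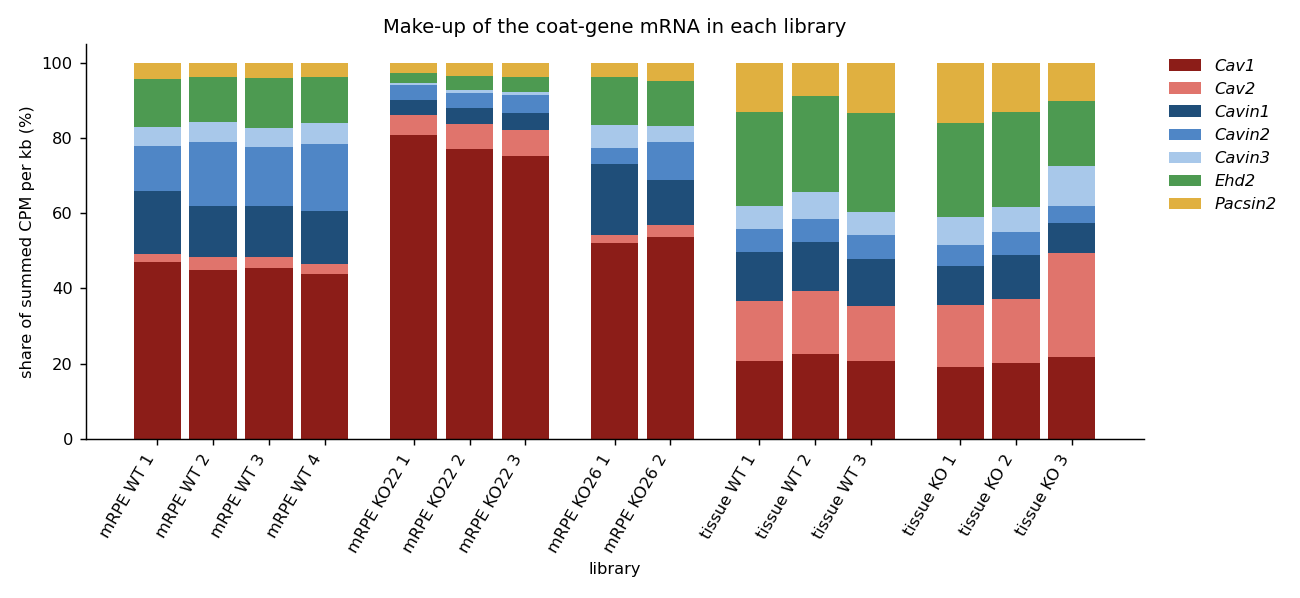
Share of each gene in the summed CPM per kb of the 7 genes, as stacked bars with 1 bar per library. The caveolin part (both reds) is 46.5% to 49.2% in WT mRPE, 82.1% to 86.2% in KO22, 54.3% and 56.8% in KO26 and 35.2% to 49.4% in RPE/choroid.

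*Cav1* and *Cav2* did not move alone on their chromosome. Within 250000 bases of the *Cav1* start, 3 genes other than *Cav1* and *Cav2* were tested in KO22 and all 3 were called higher. *Tes*, a focal adhesion protein gene, rose from 14.9 to 204 mean CPM (log2 fold change 3.75, adjusted p = 3.23e-07, edgeR). *Met*, which encodes the receptor of hepatocyte growth factor, rose from 96.1 to 402 mean CPM (2.07, adjusted p = 9.80e-07, edgeR). The noncoding *Gm4876* (2.94) overlaps *Tes* on the other strand, and their reads can be told apart only by strand. In KO26 none of the 3 was called. *Tes* was at 31.5 mean CPM there, higher at the adjusted p alone (log2 fold change 1.02, adjusted p = 0.0138, edgeR). *Gm4876* (0.87, adjusted p = 0.106, edgeR) and *Met* (-0.33, adjusted p = 0.185, edgeR) did not pass in KO26.

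In a wider window of 2 Mb on either side, chosen after these values were seen, 22 genes other than *Cav1* and *Cav2* were tested in KO22 and 19 of them were called higher, where 11.4% of all genes were. The median log2 fold change over the 22 was 2.07. Of the other 3, *Wnt2* (-2.86) and *Cftr* (-4.44) were lower and *Gm20186* (0.03) was not called. Several of the 19 are noncoding genes at the *St7* locus and may share reads. From 2 to 10 Mb on either side, 7 of 38 genes were called higher and 3 lower, with a median of -0.16, and the median over the 1082 tested genes of chromosome 6 was -0.45. In KO26 none of the 22 genes of the inner window was called (median -0.086), nor any of 25 in RPE/choroid (median 0.15). The neighbouring genes thus moved with *Cav1* and *Cav2* in KO22, and their part in the caveolin result was not tested. The copy number of the region in KO22 was not tested either.

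The same window around the other members held calls in both directions. The median log2 fold change in KO22 of the genes within 2 Mb, the member left out, was 0.11 at *Cavin1* (102 genes), 0.064 at *Cavin2* (23), -0.44 at *Cavin3* (47), -0.30 at *Ehd2* (43) and 0.70 at *Pacsin2* (68), where 16 genes were called higher and 2 lower. Chromosome medians were 0.37 for chromosome 15, which holds *Pacsin2*, and -0.32 for chromosome 7, which holds *Cavin3* and *Ehd2*. For *Cavin3*, *Ehd2* and *Pacsin2* these medians have the sign of the member's own difference, and their part in it was not tested.

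**Figure D4:**
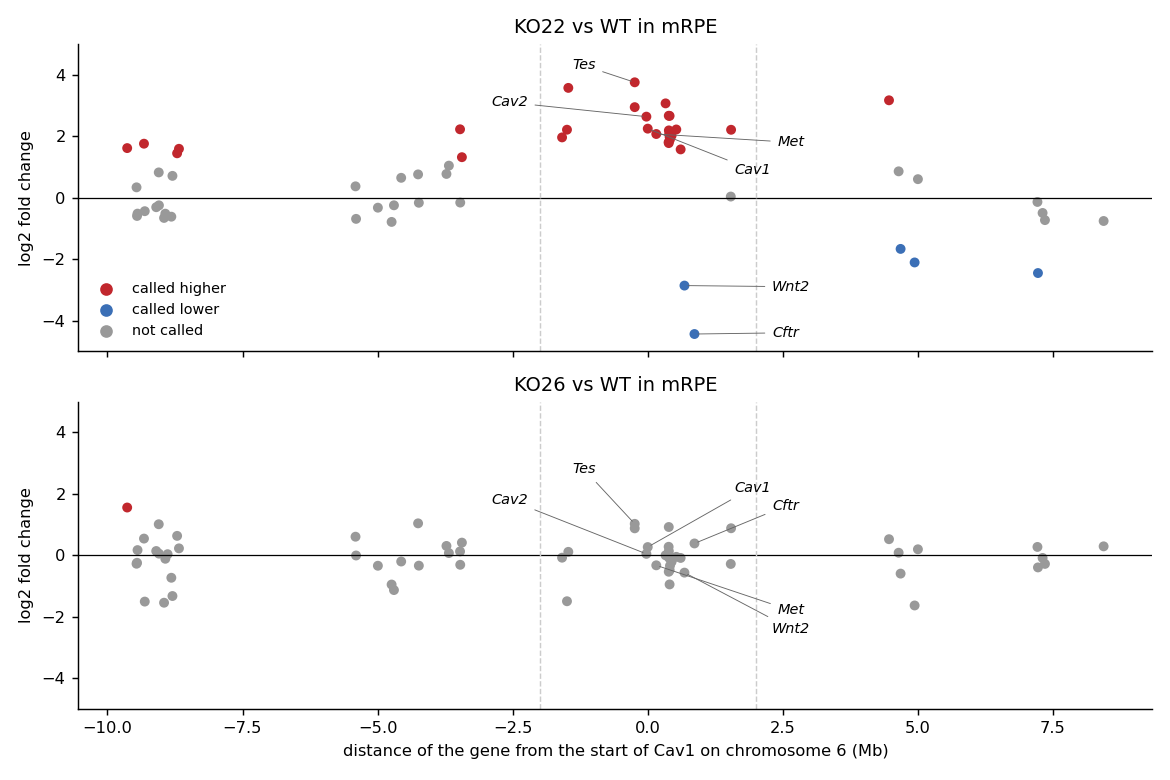
Log2 fold change of each tested gene on chromosome 6 against its distance in Mb from the *Cav1* start, for KO22 (top) and KO26 (bottom) against WT mRPE. In KO22, 21 of the 24 genes between the dashed lines (2 Mb either side), *Cav1* and *Cav2* among them, are called higher, and in KO26 none is.

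Markers of other cells that carry caveolae were read from the same libraries. The 6 measured genes of a list of 10 endothelial markers summed to 153 to 239 CPM in WT mRPE, 57.6 and 75.9 in KO26 and 5.35 to 6.65 in KO22. Most of that sum was *Kdr*, a VEGF receptor, at 177 mean CPM in WT and 2.21 in KO22, while the defining markers *Cdh5*, *Tie1*, *Emcn* and *Cldn5* had no row among the genes analysed here. Of the 6, 1 was called higher and 2 lower in KO22, where 11.4% and 13.8% of all genes were called so.

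The 7 measured smooth muscle and pericyte markers summed to 945 to 1970 CPM in WT, 1222 and 2191 in KO26, and 287 to 409 in KO22, with 2 called higher and 3 lower in KO22. The 5 measured stromal fibroblast markers summed to 7674 to 10545 CPM in WT, 11972 and 13076 in KO26, and 4035 to 6767 in KO22. Of these 5, 2 were called lower in KO22. Over all genes 11.4% were called higher and 13.8% lower in KO22. Of 4 adipocyte markers only *Fabp4*, a fatty acid carrier, was measured, and it was higher in KO22 (1.44 to 2.54 CPM in WT, 5.50 to 35.5 in KO22; log2 fold change 2.57, adjusted p = 0.000483, edgeR). *Adipoq*, *Plin1* and *Cidec* had no row among the genes analysed here. The part of these shifts in the members' differences was not tested.

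Among relatives of the members, *Ehd3*, a paralogue of *Ehd2* that acts in endosomal traffic, was at 10.3, 30.1, 34.9 and 39.3 CPM in WT and at 0.43, 0.77 and 0.62 in KO22. Of 5 measured relatives *Ehd3* alone was called in KO22, where 25.2% of all genes were called. Its log2 fold change was -5.41 (SE 0.25, adjusted p = 6.62e-07, edgeR), and it was not called in KO26, at 24.1 and 27.8 CPM (0.31). *Ehd1*, which acts in recycling, was higher at the adjusted p alone (1.12, adjusted p = 4.00e-05, edgeR). *Ehd4* (0.46), *Pacsin3* (-0.06) and the muscle gene *Cavin4* (0.49) did not pass, and *Cav3* and *Pacsin1* had no row among the genes analysed here. The median over the 5 was 0.46.

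Of 10 measured membrane, actin and signalling partners of caveolae, 1 was called higher and 1 lower in KO22 (median 0.07). Over all genes the shares were 11.4% and 13.8%. *Ptgis*, which encodes prostacyclin synthase, fell from 84.4 to 12.7 mean CPM (-2.73, SE 0.15; adjusted p = 1.24e-06, edgeR). *Plvap*, the diaphragm protein of endothelial caveolae, rose from 0.30 to 1.17 mean CPM (1.82, adjusted p = 0.0192, edgeR). The flotillins, which mark another kind of membrane domain, passed the adjusted p alone in opposite directions in KO22 (*Flot1* -0.70, *Flot2* 0.49). Over all genes 53% passed the adjusted p. None of 18 measured genes of clathrin-mediated uptake was called (median 0.22), where 25.2% of all genes were. At the adjusted p alone 6 were higher and 3 lower, where 26.9% and 26.1% of all genes were. Of 10 targets of the mechanosensitive YAP/TEAD pathway, 6 were called lower and none higher in KO22 (median -1.43), where 13.8% of all genes were called lower, led by the tissue factor gene *F3* (-2.85) and *Crim1* (-1.93). None of these 5 lists had a call in KO26, where 1.92% of all genes were called.

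**Figure D5:**
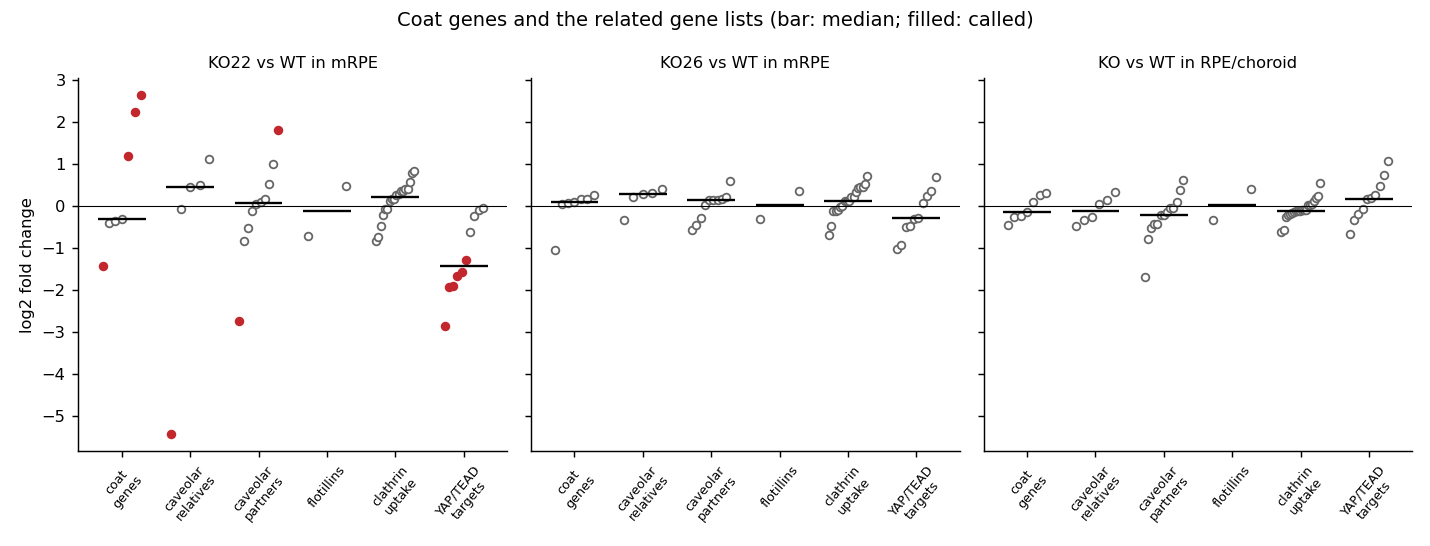
Log2 fold changes of the 7 coat genes and of the genes of 5 related lists, for KO22 and KO26 against WT mRPE and *Prom1*-KO against WT RPE/choroid, with filled points for called genes and a bar at the list median. The YAP/TEAD targets in KO22 are the list with the lowest median (-1.43), and the clathrin list has no filled point in any panel.

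Profiles over the 9 mRPE libraries were compared by root mean square (RMS) distance between log2 CPM centred on each gene, among 16372 genes with a mean of at least 1 CPM. The genes nearest to *Cav1* were *Gm26728* (0.15), *Cep76* (0.15) and *Urb2* (0.16), and those nearest to *Cav2* were *Pi4k2b* (0.17), *Gsr* (0.21) and *Spink10* (0.22). *Cav2* was at place 103 from *Cav1* and *Cav1* at place 31 from *Cav2*. Nearest to *Cavin1*, *Cavin2* and *Cavin3* were *Cd63* (0.09), *Cdc42bpg* (0.14) and *Uqcc3* (0.13). *Slc25a3* (0.08) was nearest to *Ehd2* and *Copb2* (0.07) to *Pacsin2*. *Ehd2* was at place 103 from *Cavin1*, at 0.20, whereas *Cavin3* was 0.58 and *Cavin2* 0.73 away. The points share batches and groups, so the distances are descriptions. Over the 6 RPE/choroid libraries, *Cav2* and *Cavin3* were at places 26 and 18 from each other (0.09), and *Cavin2* was at place 10 from *Ehd2* (0.06). *Cav2* and *Cavin3* both had their highest level in *Prom1*-KO replicate 3, the library that stood apart.

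In RPE/choroid no member differed between *Prom1*-KO and WT at either limit, and 0.189% of 24926 genes were called, all 47 of them lower, with 0.193% past the adjusted p alone. By edgeR 2068 genes had an unadjusted p under 0.05, among them 1 member, and DESeq2 called 84 genes higher and 189 lower, none of them a member. *Cav1* was at 24.3, 30.0 and 22.7 CPM in WT and at 20.2, 23.5 and 26.6 in *Prom1*-KO (log2 fold change -0.13, 95% interval -0.45 to 0.18). Differences as large as those of *Cav1* and *Cav2* in KO22 lay outside the intervals of both genes here. These intervals are of RPE and choroid together, in samples that also held markers of skeletal muscle and photoreceptors. A change confined to RPE cells was therefore not tested.

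*Cav2* was at 15.9, 19.0 and 13.9 CPM in WT and at 15.0, 17.0 and 28.9 in *Prom1*-KO. The last value is from replicate 3, and the log2 fold change was 0.32 with it and -0.04 without it. *Cavin3*, at 4.36, 5.89 and 4.24 CPM in WT and 4.81, 4.82 and 7.86 in *Prom1*-KO, gave 0.27 with replicate 3 and -0.02 without it. The sign of both therefore rested on the library with 80.4% mitochondrial rRNA.

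*Cavin1* was at 16.3, 18.7 and 14.8 CPM in WT and at 11.5, 14.7 and 10.4 in *Prom1*-KO, so every *Prom1*-KO library was below every WT library, as for 7.89% of all genes. The log2 fold change was -0.44 (SE 0.17), with an unadjusted p of 0.0339 and an adjusted p of 0.549 by edgeR. *Cavin2* (9.94, 10.9 and 9.65 CPM against 8.39, 9.73 and 7.60) overlapped by 1 library. So did *Ehd2*, at 37.3, 43.1 and 36.7 CPM against 33.3, 37.2 and 26.9, with log2 fold changes of -0.24 and -0.27. *Pacsin2* was at 29.3, 22.3 and 28.2 CPM in WT and at 32.3, 29.0 and 23.7 in *Prom1*-KO (0.09). The within-library ratios of *Cavin3* (log2 difference 0.70), *Pacsin2* (0.54), *Cavin2* (0.20) and *Ehd2* (0.18) to *Cavin1* and of *Cav2* to *Cav1* (0.40) were higher in every *Prom1*-KO library than in every WT library. Each of these 5 had an exact permutation p of 0.1, the smallest that 3 against 3 libraries can give, so this design cannot pass 0.05. All but *Cav2* to *Cav1* share *Cavin1* as denominator, so they are not independent of each other or of its lower level in *Prom1*-KO. How often ratios of other genes separate in this way was not tested. *Cavin1* to *Cav1* (-0.32) had an exact p of 0.2. Without *Prom1*-KO replicate 3, the library that stood apart, the difference was 0.36 for *Cavin3* to *Cavin1* and 0.21 for *Cav2* to *Cav1*.

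Cell type markers were also read in these samples. Of 10 RPE markers 4 were called lower in *Prom1*-KO, where 0.189% of all genes were called. Among them were *Rpe65* at 257 (WT) and 3.86 (*Prom1*-KO) mean CPM and *Rgr* at 697 and 18.6. The other 6 were not called: *Ttr* (log2 fold change -3.01), *Rlbp1* (-2.07), *Mitf* (-0.82), *Best1* (-0.25), *Tyrp1* (-0.16) and *Pmel* (-0.15). The 10 endothelial markers summed to 105 to 209 CPM in WT and 73.5 to 93.9 in *Prom1*-KO, with none called, and *Plvap* was at 12.3 and 3.79 mean CPM (-1.69, adjusted p = 0.0993, edgeR). Smooth muscle and pericyte markers summed to 374 to 460 and 366 to 390 CPM, and stromal fibroblast markers to 844 to 1636 and 745 to 1633. Skeletal muscle markers summed to 288 to 932 CPM in WT and 63.6 to 805 in *Prom1*-KO. Photoreceptor markers summed to 38.7 to 1110 CPM in WT and 18.9 to 531 in *Prom1*-KO. No skeletal muscle or photoreceptor marker was called. The part of these shifts in the members' values was not tested, and in bulk tissue fewer cells of a type and less RNA per cell cannot be told apart. The lists of caveolar relatives (6 measured), partners (13), flotillins (2), clathrin uptake (20) and YAP/TEAD targets (10) held no call.

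The order of the members differed between WT tissue and WT culture, which were counted in separate tables. Per length, *Ehd2* (6.16 ± 0.56 CPM per kb, SD, n = 3), *Cav1* (5.14 ± 0.76) and *Cav2* (3.79 ± 0.59) led in RPE/choroid, followed by *Cavin1* (3.11 ± 0.37), *Pacsin2* (2.803 ± 0.39), *Cavin3* (1.57 ± 0.30) and *Cavin2* (1.47 ± 0.09). Neighbours in that order overlapped, except that *Cav2* lay below *Cav1* and *Cavin3* below *Pacsin2*. *Cavin2* was thus last in tissue and second in culture, and *Cav2* moved from the third place in tissue to last in culture. With mitochondrially encoded genes and *Rn18s-rs5* left out of the total, WT mRPE held 4.67 times the CPM of *Cav1* and 5.58 times that of *Cavin2* in WT RPE/choroid, but 0.396 times that of *Cav2* and 0.758 times that of *Pacsin2*. Over all counts these ratios were 14.3, 17.0, 1.21 and 2.33 in turn, so the direction for *Cav2* and *Pacsin2* turned with the total and none is given. The total without these genes was chosen after the data were seen, and no test was run across the tables.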

How the data were processed

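RNA was sequenced from 9 mRPE and 6 RPE/choroid libraries. The authors trimmed reads with Trim Galore 0.6.7, aligned them to mm39 with STAR and deposited raw gene counts, 1 table per experiment. The kit is named differently in the sources used here, but both kits are stranded. Counts were taken as deposited, and library sizes came from TMM. Groups were compared with edgeR 4.0.16 (quasi-likelihood test, R 4.3.3) over genes that reached 5 counts in 3 or more libraries, with batch as a term in mRPE: KO22 against WT over 7 libraries, and KO26 against WT and KO22 against KO26 in a fit over 9. Genes were called at an adjusted p under 0.05 with a log2 fold change beyond 1.2 in size. SE is the size of the log2 fold change over the square root of F. The 95% intervals take a normal distribution with that SE, which makes them too narrow for so few libraries. Ratios were tested by exact permutation, across and within batches. DESeq2 1.42.0, other filters, limits and sample sets were alternatives. Scripts were tested on simulated data. Replicate numbers follow the order of deposit. Number 1 is the batch 8995 library in each mRPE group, which the batch term covers, and the other numbers pair nothing.

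All 7 genes were reported. From other lists the text names at most the 2 called genes with the largest change in each direction, and the relatives of the members. It also names the tested genes within 250000 bases of *Cav1* and the genes with the most alike profiles. The 4 RPE markers measured in mRPE and the 6 not called in RPE/choroid are named as well. The members, lists and tests were chosen with earlier results of these data known. Positions, lengths and promoters came from GENCODE and GRCm39, with 99.2% of gene IDs matched. Counts limit precision by counting error and by the few libraries per group.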

Additional observations from a re-analysis of the deposited data

Results flagged for a closer look

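In the WT mRPE group, replicate 1, the only WT library of batch 8995, lay far above the other 3 for *Cavin1* (182 CPM) and *Cavin3* (30.9 CPM), by a test that chance passes in about 1 in 20 groups.

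KO22 differed from KO26 by the test of the difference itself for *Cav1* (1.98 on the log2 scale), *Cav2* (2.59), *Cavin2* (0.70), *Cavin3* (-1.57) and *Pacsin2* (1.03). Both lines are set against the same WT libraries, and each is 1 line.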

How the results depend on the processing

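*Cav1* and *Cav2* kept their direction and their call in KO22 against WT and against KO26 under all 17 alternatives of each comparison. In KO22 against WT, members called lower were 3 with no limit on the fold change, 0 in batch 9262 alone and 0 to 1 when leaving out 1 library, with 2 to 3 higher. In KO26 against WT, 1 was lower with no fold limit or a limit of 1, and 0 to 1 when leaving out 1 library. In KO22 against KO26, 4 were higher with no fold limit, 0 lower in batch 9262 alone, and 0 to 1 lower when leaving out 1 library.

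Signs turned only for differences that passed no limit. In KO26 against WT, batch 9262 alone gave -0.039 for *Cav2*, -0.21 for *Cavin1*, -0.33 for *Cavin3* and -0.10 for *Ehd2*, and WT and KO26 libraries alone gave -0.014 for *Cavin1* and -0.033 for *Ehd2*. Leaving out 1 library gave -0.049 to 0.15 for *Cav2*, -0.29 to 0.50 for *Cavin1*, -0.44 to 0.75 for *Cavin3* and -0.19 to 0.35 for *Ehd2*. In KO22 against KO26, *Cavin1* was at 0.046 in batch 9262 alone. In RPE/choroid, leaving out 1 library gave -0.022 to 0.19 for *Pacsin2*, -0.037 to 0.49 for *Cav2* and -0.018 to 0.43 for *Cavin3*. In mRPE it gave -0.29 to 0.0023 for *Cavin2* to *Cavin1* and -0.20 to 0.013 for *Ehd2* to *Cavin1*. Where 1 KO26 library was left, it is assumed to vary like the other groups. The cause was not tested.

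Over all genes, KO22 against WT went from 2338 higher and 2816 lower to 5506 and 5331 with no fold limit, and KO22 against KO26 from 1568 and 2229 to 3388 and 3744. KO26 against WT went from 250 and 149 to between 68 and 490 and between 32 and 410. RPE/choroid went from 0 and 47 to 84 and 189 with DESeq2, and to 0 to 5 and 9 to 37 without 1 library. No paired analysis was possible because replicate numbers follow the order of deposit, and the batch that the libraries numbered 1 in mRPE share is a term of the fit.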
